A study of Mus musculus with 16 samples.

Results

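Elavl4, Uchl1, Ret, Vip, Nos1, Chat, S100b and Ngfr, 8 genes that mark enteric neurons and glia, were followed through ileal RNA-seq of mice given ethanol (EtOH) or a pair-fed (PF) control diet. They were taken as the rows of the gene count table whose Ensembl identifiers carry these symbols, 8 of 21965 genes. Mice were male C57BL/6, either wild-type (WT) littermates or heterozygous carriers of the fat-1 transgene, a C. elegans n3 fatty acid desaturase present in all tissues, which the labels write Fat1+/-. Feeding on a Lieber-DeCarli liquid diet began at 8 to 10 weeks of age and lasted 6 weeks, with EtOH raised in steps to 6% v/v, held for 3 weeks, while PF mice received isocaloric maltose dextrin. The PF mice were 4 WT and 4 fat-1 and the EtOH mice 3 WT and 5 fat-1, each giving 1 library from ileum tissue. Libraries numbered 1 to 8 were PF and the later ones EtOH, so library order and diet cannot be told apart.

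The enteric nervous system lies in plexuses within the gut wall and controls motility, secretion and blood flow without needing input from the brain. Its excitatory motor neurons use acetylcholine, which choline acetyltransferase (Chat) makes, and its inhibitory motor neurons use nitric oxide, made by neuronal nitric oxide synthase (Nos1), together with vasoactive intestinal peptide (Vip). Enteric glia wrap these neurons, and both arise from neural crest cells that need the receptor Ret. In bulk RNA, fewer cells of a type and less RNA per cell cannot be told apart.

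The 16 libraries held 8422645 to 11438539 counted reads. Several libraries stood apart in the summed levels of gene lists. The summed level of a large intestine gene list lay between 99.0 and 421 CPM, read counts scaled to library size, in PF mice, but reached 5068 in WT EtOH 2, 12635 in fat-1 EtOH 3 and 13538 in fat-1 EtOH 4. The summed level of a proximal small intestine list was 53284 in fat-1 PF 2 and 52219 in fat-1 PF 4, against 2163 to 15622 in the other PF mice and 85.2 to 570 in EtOH mice. Every EtOH mouse was thus below every PF mouse, so the level of this list and diet cannot be told apart. The summed level of 10 smooth muscle genes was 1406 to 2071 in PF mice and 2492 to 4828 in EtOH mice, and none of the 10 was at 0 in any mouse. Fat-1 EtOH 5 was highest in lists of B cell and follicle genes (637 CPM, others 5.80 to 136), endothelial genes (141 CPM, others 35.9 to 60.4) and adipocyte genes (372 CPM, others 83.8 to 269), and the 8 members summed to 35.3 CPM there against 43.3 to 80.4 CPM in the other EtOH mice. Without it the same number of members, 4, was called in fat-1 mice, beside 37.2% of all genes called and 19.3% called higher.

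Per kilobase of exon, Vip was the highest of the 8 genes, at a mean of 5.86 CPM per kb over all 16 mice (SD 2.06). Uchl1, a ubiquitin hydrolase abundant in neurons, followed at 4.25 CPM per kb (SD 2.14), and Vip exceeded it in 12 of 16 mice, so the order of this pair was not fixed. Ret had a level of 1.65 CPM per kb, S100b 1.15, Ngfr 0.727 and Elavl4 0.453. Nos1 at 0.221 CPM per kb (SD 0.211) and Chat at 0.188 (SD 0.111) were lowest, and Nos1 exceeded Chat in 8 of 16 mice. Uchl1 was above Ret, and Elavl4 above Nos1, in 16 of 16 mice. All 8 genes passed the filter on low counts, but Chat rested on 0 to 21 reads per library, and it was at 0 in 1 mouse.

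The promoters of 3 of the genes are shown to give the letters upstream of Uchl1 and Ngfr, which rose with EtOH in fat-1 mice, and of Vip, the most abundant, which did not pass the test. Each is 100 bases 5′ to 3′ on the gene's own strand, from RefSeq on GRCm38.p6, ending just before the outermost annotated start, which lies 30 bases before the RefSeq start for Uchl1, 37 before it for Ngfr and at it for Vip. Motif positions and the 250-base windows are counted from the RefSeq start, and capitals mark TGACGT (the core of the cyclic AMP response element), TATAAA (the TATA box) or GGGCGG (the GC box) found on either strand. The Uchl1 stretch is at chr5:66675991-66676090 on the plus strand, the Vip stretch at chr10:5639118-5639217 on the plus strand and the Ngfr stretch at chr11:95587736-95587835 on the minus strand.
Uchl1: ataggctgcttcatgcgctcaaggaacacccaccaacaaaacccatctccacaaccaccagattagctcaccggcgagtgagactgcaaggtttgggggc
Vip: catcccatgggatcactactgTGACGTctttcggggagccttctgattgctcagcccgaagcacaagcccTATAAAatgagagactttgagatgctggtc
Ngfr: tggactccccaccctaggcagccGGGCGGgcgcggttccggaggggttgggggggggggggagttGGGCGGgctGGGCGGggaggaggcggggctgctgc

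Vip held TGACGT 79 bases before its start, and TATAAA 3 times, the nearest 30 bases before it. Over 32851 RefSeq promoters, 6.47% held TGACGT and 12.4% held TATAAA in the 250 bases before the start, and 32.7% held GGGCGG, which Ngfr held 4 times. Uchl1 held none of the 3 motifs in its 250 bases. TGACGT was also found before 1 of 4 annotated starts of Elavl4, which rose in fat-1 mice, and before that of Chat, which did not pass, so this motif did not separate the called members from the others. These are matches of letters only. Promoter entries were matched for 7 of the 8 genes; the Ret promoter is not shown.

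The first question was how these genes differed between EtOH and PF mice of each genotype. In fat-1 mice, Nos1, Elavl4, Uchl1 and Ngfr rose, while Vip and Ret did not pass the test. In WT mice, none of the 8 passed, although Nos1 and Elavl4 were higher in every EtOH mouse than in any PF mouse, as were 12.2% of genes. The test was edgeR's quasi-likelihood test over 13811 genes with Benjamini-Hochberg adjustment, and a gene was called at an adjusted p of 0.05 or less. In fat-1 mice 18.7% of all genes were called higher with EtOH, against 4 of the 8 members. In WT mice 0.00724% of genes were called higher and 0 members were, with 1 member higher at an unadjusted p under 0.05, by edgeR, where 7.05% of genes were. By limma voom 1 member was called, Nos1, beside 10% of all genes called higher.

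**Figure D1:**
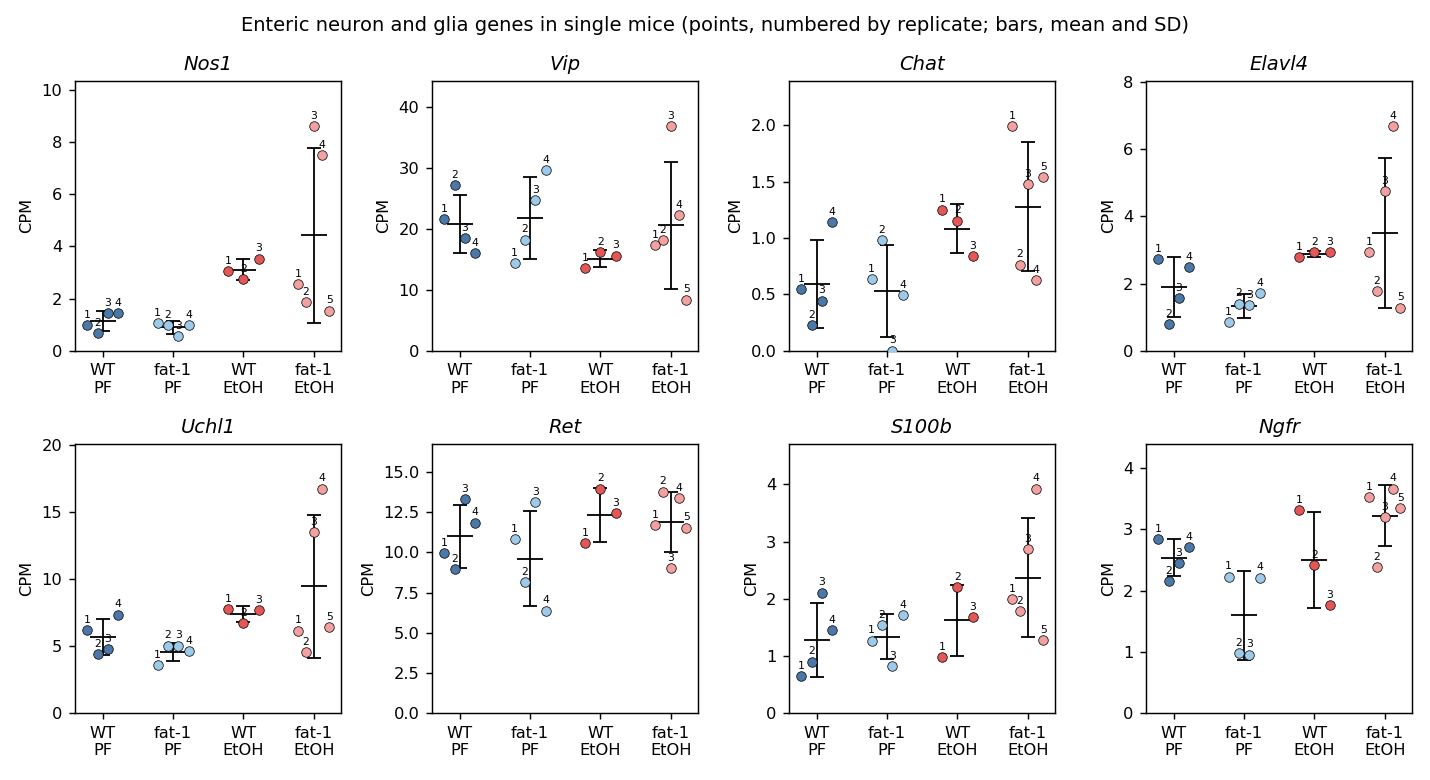
CPM of the 8 genes in single mice, with 1 panel per gene, the 4 groups on the horizontal axis, points numbered by replicate and bars for mean and SD. Nos1 in the 8 EtOH mice (1.54 to 8.61 CPM) lay above all 8 PF mice (0.547 to 1.45 CPM), and Elavl4, Uchl1 and Nos1 were highest in fat-1 EtOH 3 and 4.

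Nos1 (ENSMUSG00000029361, chr5:117781032-117958840, plus strand, GRCm38) makes nitric oxide in inhibitory motor neurons. In WT PF mice 1 to 4 it was at 0.983, 0.679, 1.44 and 1.45 CPM, and in fat-1 PF mice 1 to 4 at 1.06, 0.983, 0.547 and 0.982 CPM. In WT EtOH mice 1 to 3 it was at 3.04, 2.73 and 3.53 CPM, and in fat-1 EtOH mice 1 to 5 at 2.57, 1.87, 8.61, 7.49 and 1.54 CPM. The groups did not overlap in either genotype, and fat-1 EtOH 3 and 4 stood far above the other EtOH mice. In fat-1 mice the log2 fold change was 2.28 (SE 0.53, edgeR adjusted p = 0.00449). In WT mice it was 1.43 (SE 0.55, edgeR adjusted p = 0.276). Averaged over both genotypes it was 1.86 (SE 0.38, edgeR adjusted p = 0.00236), and all 8 EtOH mice were above all 8 PF mice, as for 3.13% of genes.

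Elavl4 (ENSMUSG00000028546, chr4:110203722-110351909, minus strand) encodes an RNA-binding protein of neurons, HuD. Its level was 2.73, 0.792, 1.56 and 2.49 CPM in WT PF mice and 0.848, 1.40, 1.37 and 1.72 CPM in fat-1 PF mice. With EtOH it was 2.78, 2.94 and 2.94 CPM in the WT and 2.95, 1.79, 4.76, 6.69 and 1.28 CPM in fat-1 mice. The WT EtOH values were close together and just above the highest WT PF mouse, while the fat-1 EtOH values spread over the PF range and beyond it. The log2 fold change was 1.39 in fat-1 mice (SE 0.47, edgeR adjusted p = 0.0319). In WT mice it was 0.60 (SE 0.50, edgeR adjusted p = 0.611).

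Uchl1 (ENSMUSG00000029223, chr5:66676091-66687234, plus strand) is known for its abundance in the cell bodies and fibers of neurons. It was at 6.23, 4.41, 4.78 and 7.38 CPM in WT PF mice and 3.60, 5.05, 5.06 and 4.66 CPM in fat-1 PF mice. In EtOH mice it was at 7.79, 6.72 and 7.73 CPM in the WT group and at 6.18, 4.59, 13.5, 16.8 and 6.42 CPM in the fat-1 group. Both genotypes overlapped between diets, and fat-1 EtOH 3 and 4 were again the highest. Its log2 fold change was 1.05 in fat-1 mice (SE 0.34, edgeR adjusted p = 0.0251), and in WT it was 0.38 (SE 0.37, edgeR adjusted p = 0.676).

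Ngfr (ENSMUSG00000000120, chr11:95568818-95587735, minus strand) encodes the low-affinity neurotrophin receptor p75, present on enteric glia and neural crest cells. In PF mice it was at 2.84, 2.15, 2.44 and 2.70 CPM in the WT group and 2.23, 0.983, 0.957 and 2.21 CPM in the fat-1 group. In EtOH mice it was at 3.31, 2.41 and 1.76 CPM in the WT group and 3.52, 2.38, 3.20, 3.66 and 3.34 CPM in the fat-1 group. All 5 fat-1 EtOH mice were above all 4 fat-1 PF mice, as for 10.6% of genes in that comparison, whereas the WT groups overlapped. The log2 fold change was 0.99 in fat-1 mice (SE 0.29, edgeR adjusted p = 0.0149), and in WT it was -0.02 (SE 0.31, edgeR adjusted p = 0.981). Fat-1 PF mice 2 and 3 held the lowest values of all 16.

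Vip (ENSMUSG00000019772, chr10:5639218-5647617, plus strand) encodes the relaxant and secretory peptide of inhibitory motor and secretomotor neurons. It was at 21.6, 27.2, 18.4 and 16.004 CPM in WT PF mice and 14.4, 18.2, 24.7 and 29.7 CPM in fat-1 PF mice. With EtOH it was at 13.6, 16.2 and 15.6 CPM in WT mice and 17.3, 18.1, 36.9, 22.3 and 8.38 CPM in fat-1 mice. The diets overlapped in both genotypes, and fat-1 EtOH 3 held the highest and fat-1 EtOH 5 the lowest value of the series. The log2 fold change was -0.08 in fat-1 mice (SE 0.32, 95% interval -0.71 to 0.55) and -0.46 in WT mice (SE 0.37, 95% interval -1.19 to 0.27), with edgeR adjusted p = 0.864 and 0.599.

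The remaining members did not pass in either genotype. Ret (chr6:118151745-118197718, minus strand), the receptor of GDNF family ligands, lay between 6.38 and 13.96 CPM in all 16 mice, with a log2 fold change of 0.31 in fat-1 mice (SE 0.20, edgeR adjusted p = 0.24). S100b (chr10:76253853-76261159, plus strand), a calcium-binding protein of glia, was at 0.656 to 2.11 CPM in PF mice and 0.985 to 3.93 CPM in EtOH mice. Its log2 fold change was 0.82 in fat-1 mice (SE 0.40, edgeR adjusted p = 0.12). Chat (chr14:32408203-32465989, minus strand) was at 0 to 1.14 CPM in PF mice and 0.624 to 2.00 CPM in EtOH mice, with a log2 fold change of 1.25 in fat-1 mice (SE 0.58, edgeR adjusted p = 0.101). Chat is also expressed by tuft cells, and 2 of 8 tuft cell genes tested were higher in fat-1 EtOH mice, beside 18.7% of all genes. In WT mice 0 of the 8 were called by edgeR, with 4 higher at an unadjusted p under 0.05, beside 7.05% of all genes, and averaged over genotypes 4 were called higher, beside 18.3%. The tuft list summed to 64.9 to 116 CPM in fat-1 PF mice and 62.3 to 149 CPM in fat-1 EtOH mice, while in WT mice it was 70.9 to 92.7 CPM with PF and 96.9 to 152 CPM with EtOH, without overlap. Its part in the Chat values was not tested. Whether counting used strand is not given in the sources used here, and S100b overlaps Dip2a on the other strand, while Slc18a3 lies inside Chat on the same strand and Uchl1, Nos1 and Chat have antisense genes. Reads of these overlapping genes may not be separable.

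The Elavl4 and Uchl1 calls in fat-1 mice were lost without the libraries high in large intestine genes. Without WT EtOH 2 and fat-1 EtOH 3 and 4, 1 of the 8 members was called in fat-1 mice, beside 13.9% of all genes higher: Nos1, at a log2 fold change of 1.16 (SE 0.34, edgeR adjusted p = 0.0226). Without them Ngfr was at 0.94 (SE 0.34, edgeR adjusted p = 0.0529), near its value with all libraries. Without only fat-1 EtOH 3 and 4, a choice made after seeing the data, both Nos1 at 1.16 (edgeR adjusted p = 0.0173) and Ngfr at 0.94 (edgeR adjusted p = 0.0432) were called, beside 14.7% of all genes higher. Without all 3 libraries, Elavl4 was at 0.62 (SE 0.42, edgeR adjusted p = 0.276) and Uchl1 at 0.35 (SE 0.22, edgeR adjusted p = 0.236), both well below their values with all libraries. In WT mice Nos1 was at 1.51 (SE 0.34, edgeR adjusted p = 0.0666). Averaged over genotypes, Nos1 was at 1.33 (SE 0.24, edgeR adjusted p = 0.00183). Leaving out fat-1 PF 2 and 4, those with high proximal genes, also left Nos1 as the single call in fat-1 mice, at 2.41 (SE 0.75, edgeR adjusted p = 0.0492). The fold changes of the others were not smaller there, with Elavl4 at 1.66, Uchl1 at 1.14 and Ngfr at 0.99 (edgeR adjusted p = 0.1, 0.108 and 0.0707), and 5.99% of all genes were called higher.

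**Figure D2:**
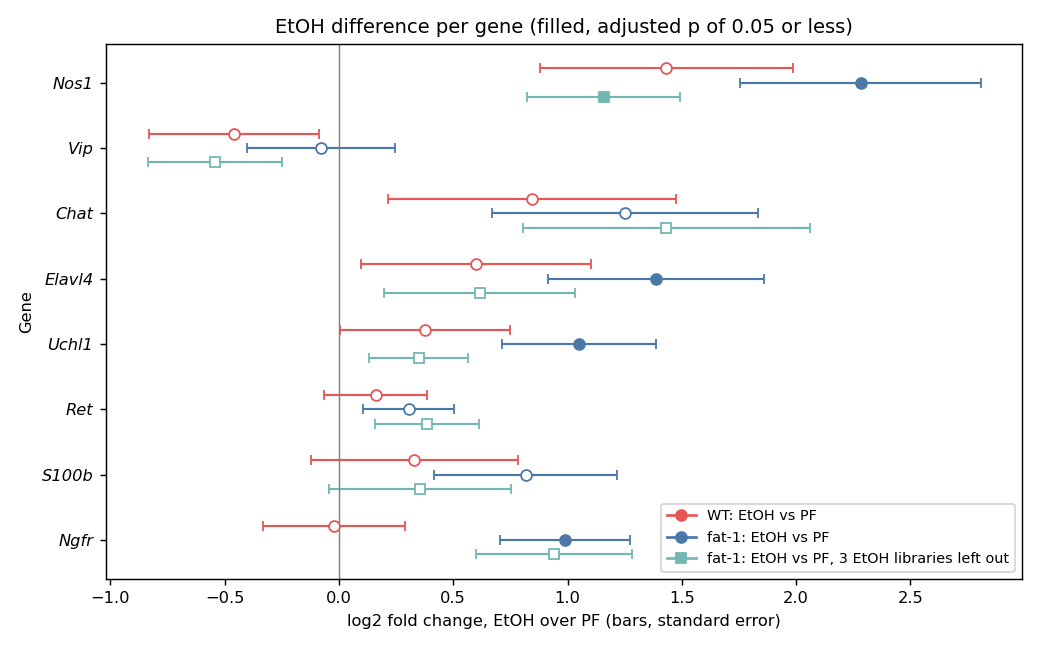
Log2 fold change of EtOH over PF for each gene (points) with its standard error (bars), in WT mice, in fat-1 mice, and in fat-1 mice with the 3 EtOH libraries high in large intestine genes left out; filled symbols mark an adjusted p of 0.05 or less. In fat-1 mice Nos1 went from 2.28 to 1.16 and Elavl4 from 1.39 to 0.62 on leaving them out, whereas Ngfr stayed near 0.99.

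Averaged over genotypes, 3 of the 8 members were called higher with EtOH, beside 18.3% of all genes: Nos1, Elavl4 at 0.99 (SE 0.34, edgeR adjusted p = 0.0358) and Uchl1 at 0.71 (SE 0.25, edgeR adjusted p = 0.0377). Chat, at 1.05 (SE 0.43, edgeR adjusted p = 0.068), did not pass. Dropping each of the 16 mice in turn, the averaged calls of Elavl4 and of Uchl1 were each lost 10 times. The median log2 fold change of the 8 was 1.02 for the fat-1 mice and 0.35 for the WT, where the median of all genes was 0.05 and 0.01. For the fat-1 mice it was 0.50 without the 3 libraries high in large intestine genes, and 0.35 over the 3 members left by the stricter filter of 10 reads in every mouse.

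The second question was whether the genotype mattered on either diet. On the PF diet, comparing the genotypes, 0% of all genes and 0 members were called by edgeR. The log2 fold changes of the members lay between -0.65 (Ngfr, SE 0.30, 95% interval -1.24 to -0.05) and 0.06 (Vip, SE 0.34, 95% interval -0.60 to 0.73), and Ngfr was the 1 member lower at an unadjusted p under 0.05, as were 3.48% of genes. On the EtOH diet, 0.00724% of all genes and 0 members were called by edgeR, and 0 members were at an unadjusted p under 0.05, where 4.86% of genes were. The EtOH effect in fat-1 mice exceeded that in WT mice by 1.01 for Ngfr (SE 0.42, edgeR adjusted p = 0.595) and by 0.85 for Nos1 (SE 0.77, edgeR adjusted p = 0.702). The direction for Nos1 turned in other fits, to -0.35 without the 3 libraries high in large intestine genes, -0.28 without fat-1 EtOH 3 and 4 and -0.025 by limma voom. No member passed this interaction test, in which 0% of all genes were called and 1 member was above 0 at an unadjusted p under 0.05, beside 3.5% of genes, so the calls in fat-1 mice were not shown to differ from WT.

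A wider list of 87 enteric nervous system genes, grouped by role, gave the setting of the 8. Of these, 63 were tested and 24 were too low, and in fat-1 mice 42 were higher and 3 lower with EtOH, where 18.7% of all genes were higher and 18.8% lower, with a median log2 fold change of 1.26. In WT mice 0 were called by edgeR, with 16 higher and 2 lower at an unadjusted p under 0.05, against 7.05% and 7.1% of all genes. Other fits called 1 by DESeq2, 20 by limma voom and 14 with only the WT groups fitted, where 1.86%, 20.7% and 8.32% of all genes were called. Without the 3 libraries high in large intestine genes, 27 were called in fat-1 mice, beside 29.7% of all genes, and the median log2 fold change of the list was 0.67.

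Among genes shared by most neurons, 14 of 16 tested rose in the fat-1 EtOH group and 0 fell, beside 18.7% of all genes higher and 18.8% lower, the shares that also apply to the lists that follow. The list of 22 genes summed to 74.3 to 95.3 CPM in fat-1 PF mice and 113 to 148 CPM in fat-1 EtOH 1, 2 and 5, but to 259 and 286 CPM in fat-1 EtOH 3 and 4. Nefl, a neurofilament subunit of axons, went from 0.444 ± 0.0986 CPM (SD, n = 4) to 3.97 ± 3.72 CPM (SD, n = 5), which is 3.14 on the log2 scale (SE 0.69, edgeR adjusted p = 0.00346). The adhesion molecule L1cam rose by 1.34 on the log2 scale, the stathmin Stmn3 by 1.55, the G protein subunit Gng3 by 1.68 and the granule protein Scg2, shared with endocrine cells, by 0.50.

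Of transmitters and peptides, 6 of 10 tested were higher and 0 lower. All 17 genes of that list summed to 41.0 to 88.2 CPM in fat-1 PF mice, 48.3 to 65.5 CPM in fat-1 EtOH 1, 2 and 5, and 109 and 123 CPM in fat-1 EtOH 3 and 4, so only the last pair lay above the PF range. Grp, gastrin-releasing peptide, had a log2 fold change of 3.37 (SE 0.89, edgeR adjusted p = 0.00912), on 0 to 4 reads per fat-1 PF mouse and with 6.48 and 6.24 CPM in fat-1 EtOH 3 and 4 against 0.684 to 0.950 CPM in the other 3. Penk, the enkephalin precursor, was at 2.24, with 14.9 and 18.4 CPM in fat-1 EtOH 3 and 4 against 2.64 to 6.07 CPM in the other 3. Slc5a7, the choline transporter of cholinergic neurons, was at 1.55. Tac1, the substance P precursor, was at 0.61 (SE 0.29, edgeR adjusted p = 0.107), and Sst, somatostatin, also made by endocrine D cells, at -0.67 (SE 0.26, edgeR adjusted p = 0.0564).

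Of ligands and receptors of the GDNF, endothelin and neurotrophin families, 3 of 10 tested were higher and 1 lower, not far from the 18.7% and 18.8% of all genes. The higher ones were Gfra1, the GDNF co-receptor that works with Ret, at 1.46, Ntrk2 at 2.99 and Ntrk3 at 1.52, and the lower one was the ligand Edn3, at -1.05 (SE 0.37, edgeR adjusted p = 0.0367). Ednrb, the endothelin receptor needed by neural crest cells, was at 0.58 (SE 0.27, edgeR adjusted p = 0.103). Of receptors and effectors of transmitters, 10 of 14 tested were higher and 1 lower. The nicotinic subunit Chrnb4 was at 2.53, the tachykinin receptor Tacr2 at 2.10, Vipr2 at 2.10 and the cyclic GMP phosphodiesterase Pde5a at 0.52. The 5 fat-1 EtOH mice spread widely, over 2.30 to 21.5 CPM for Chrnb4 (SD 9.46), 3.23 to 25.6 for Ntrk2 (SD 10.1) and 1.36 to 10.4 for Vipr2 (SD 4.12). Chrnb4 and Vipr2 overlapped the fat-1 PF mice, which reached 2.65 and 1.84 CPM. Vipr1, the VIP receptor abundant in gut epithelium, fell from 398 ± 82.2 CPM (SD, n = 4) to 192 ± 22.1 CPM (SD, n = 5).

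Of glial and Schwann cell genes, 9 of 13 tested rose and 1 fell in the fat-1 EtOH group. Gfap, the glial intermediate filament, rose by 2.27 on the log2 scale (SE 0.71, edgeR adjusted p = 0.0215), the receptor phosphatase Ptprz1 by 1.80 and myelin basic protein, Mbp, by 0.50. The 5 fat-1 EtOH mice spread over 0.765 to 5.98 CPM for Gfap (SD 2.56) and 0.760 to 6.51 CPM for Ptprz1 (SD 2.95). Both overlapped the fat-1 PF mice, which reached 1.23 and 1.06 CPM. Entpd2, an ectonucleotidase and the 1 member of that list that fell, was at -0.51, and Erbb3, the neuregulin receptor also present in epithelium, was at -0.10 (SE 0.18, edgeR adjusted p = 0.672).

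**Figure D3:**
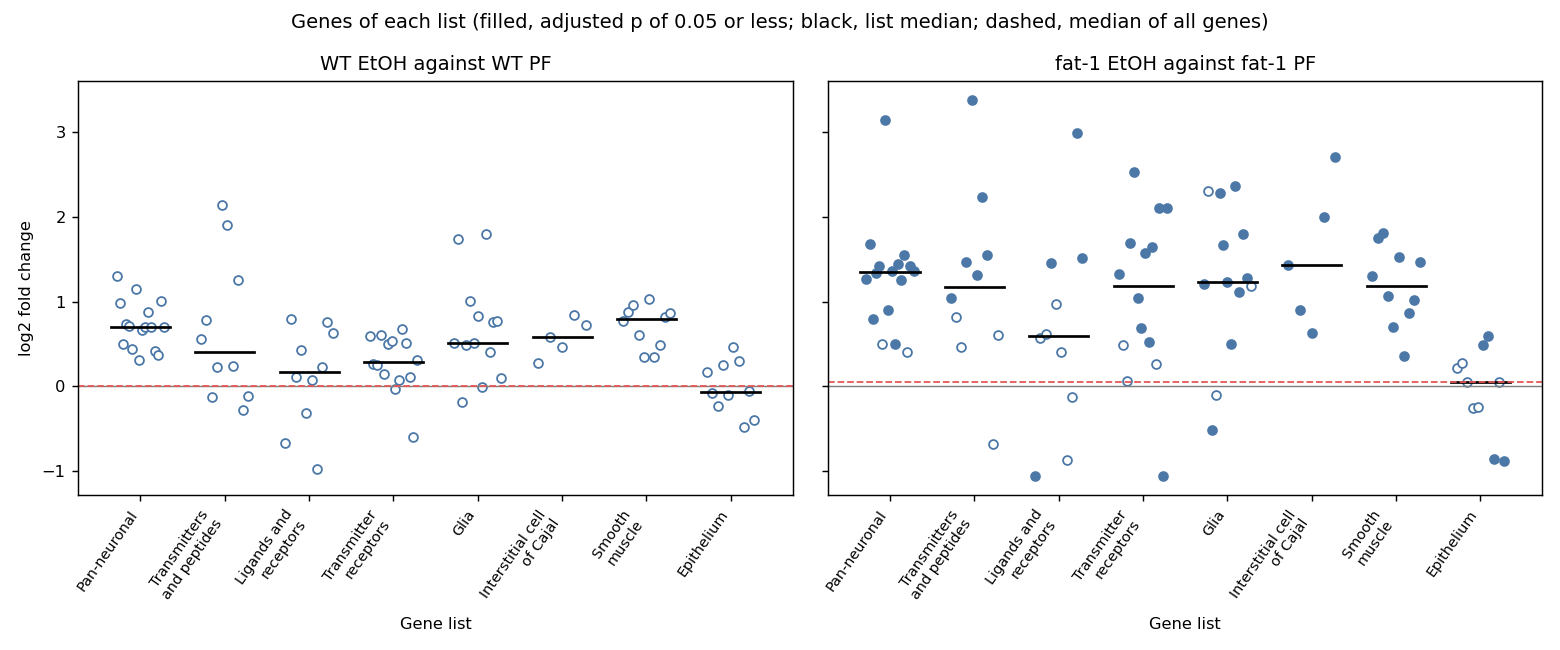
Log2 fold change of EtOH over PF for each gene of 8 lists (points), in WT mice on the left and fat-1 mice on the right; filled points have an adjusted p of 0.05 or less, black bars are list medians and the dashed line is the median of all genes. In fat-1 mice 14 of 16 pan-neuronal, 9 of 13 glial and 10 of 10 smooth muscle genes were higher, and in WT mice 0 of these passed.

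Genes of other cells of the muscle layer moved with the neuronal genes. In fat-1 EtOH mice 10 of 10 smooth muscle genes and 5 of 5 genes of interstitial cells of Cajal, the pacemaker cells of the gut wall, were higher, beside 18.7% of all genes. The Cajal cell genes summed to 196 and 165 CPM in fat-1 EtOH 3 and 4. They summed to 69.2 to 79.6 CPM in fat-1 EtOH 1, 2 and 5 and 43.5 to 53.0 CPM in fat-1 PF mice. In WT mice 0 of those 5 genes were at an unadjusted p under 0.05, while their sum was 54.3 to 60.7 CPM with PF and 74.3 to 99.3 CPM with EtOH. In WT mice 0 of 10 smooth muscle genes passed by edgeR, with 9 of 10 higher at an unadjusted p under 0.05, beside 7.05% of all genes. Of 10 epithelial genes 2 rose and 2 fell in the fat-1 EtOH group, and of 12 enteroendocrine genes, from cells that share granule proteins with neurons, 2 rose and 2 fell, both near the shares of all genes (18.7% higher and 18.8% lower). Still, fat-1 EtOH 3 and 4 stood apart in both sums. The enteroendocrine sum was 832 and 810 CPM there, against 333 to 499 CPM in fat-1 EtOH 1, 2 and 5. The epithelial sum was 10704 and 10739 CPM there, against 12012 to 17302 CPM in those 3. Each member was also set against the summed CPM of the 10 smooth muscle genes, and the part of muscle content in the neuronal values was not tested.

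On that scale, Nos1 was 0.631 ± 0.206 per 1000 smooth muscle CPM in WT PF mice (SD, n = 4) and 1.05 ± 0.210 in WT EtOH mice (SD, n = 3). In fat-1 mice it was 0.576 ± 0.192 (SD, n = 4) and 1.09 ± 0.580 (SD, n = 5). The log2 difference for Nos1 was 0.78 in WT and 0.85 in fat-1 mice, with exact two-sided permutation p = 0.0857 and 0.175, although the WT groups did not overlap. Averaged over genotypes it was 0.81 (exact permutation within genotype, p = 0.0138, or 0.0612 after Benjamini-Hochberg adjustment over the 27 ratio tests). With 0.5 added to the CPM of Nos1 it was 0.42 (exact permutation p = 0.0619), so its side of the threshold depended on the scale. Elavl4 per smooth muscle differed by 0.04 in WT and 0.03 in fat-1 mice, with exact permutation p = 0.971 and 0.921.

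Vip was 11.7 ± 3.79 per 1000 smooth muscle CPM in WT PF and 5.16 ± 1.07 in WT EtOH mice (SD, n = 4 and 3), and 13.7 ± 4.24 in fat-1 PF and 5.49 ± 1.73 in fat-1 EtOH mice (SD, n = 4 and 5). The muscle sum was higher in every EtOH mouse than in any PF mouse, while the CPM of Vip itself did not pass the test in either genotype, so nothing is read from these values about Vip alone. The log2 difference averaged over genotypes was -1.24 for Vip (exact permutation within genotype, p = 0.000227, the smallest possible, adjusted 0.00306) and -0.68 for Ret (p = 0.00385 by the same exact test, adjusted 0.0347), whose CPM did not pass either. For Uchl1 it was -0.29, for S100b -0.35 and for Ngfr -0.41, with exact permutation p = 0.0832, 0.305 and 0.1. Ngfr in WT mice differed by -0.78 without overlap of the groups (exact permutation p = 0.0286, the smallest possible, adjusted 0.0771).

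The ratio of Nos1 to Vip, a comparison of both inhibitory transmitter genes within a library, was 0.0599 ± 0.0302 in WT PF mice (SD, n = 4) and 0.0456 ± 0.0228 in fat-1 PF mice (SD, n = 4). It was 0.206 ± 0.0323 in WT EtOH mice (SD, n = 3) and 0.201 ± 0.0893 in fat-1 EtOH mice (SD, n = 5). Every EtOH mouse exceeded every PF mouse of either genotype. The log2 difference was 1.94 in WT and 2.17 in fat-1 mice, with exact permutation p = 0.0286 and 0.00794, the smallest these designs allow, and 0.0771 and 0.0453 after adjustment over the 27 tests. With 0.5 added to each CPM the differences were 1.58 and 1.73, at the same unadjusted p. Nos1 per Elavl4 differed by 0.74 and 0.81, with exact permutation p = 0.143 and 0.0714, and averaged over genotypes by 0.78 (exact permutation within genotype, p = 0.00839, adjusted 0.0453). These ratios and the scale of their tests were chosen after the data were seen.

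**Figure D4:**
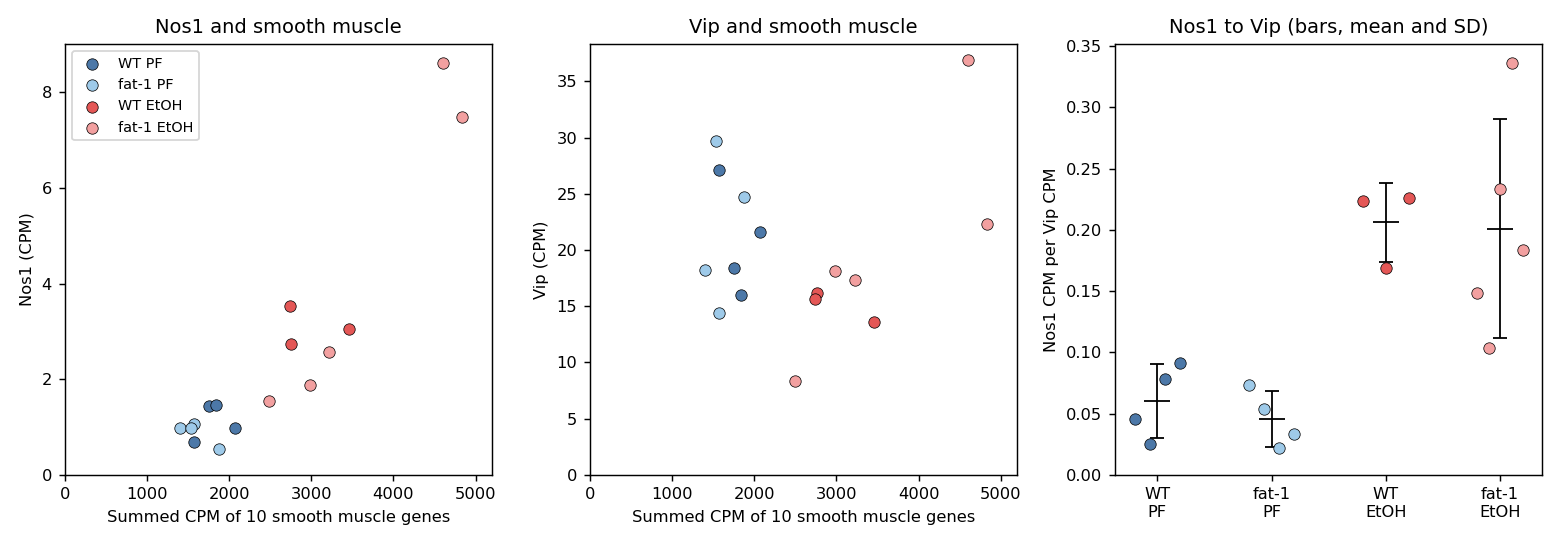
Left and middle, Nos1 and Vip CPM in each mouse against the summed CPM of 10 smooth muscle genes; right, Nos1 CPM per Vip CPM in each mouse with mean and SD per group. The ratio was 0.0221 to 0.0909 in PF mice and 0.103 to 0.336 in EtOH mice.

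Across the 16 libraries, the log2 CPM of Elavl4 and Uchl1 had a Pearson r of 0.90, Uchl1 and Nos1 of 0.87 and Elavl4 and Nos1 of 0.85, whereas Vip and Nos1 had 0.07 and Ret and Vip -0.43. With the mean of each group removed, these were 0.85, 0.80, 0.77, 0.50 and -0.36, and Vip with Elavl4 went from 0.21 to 0.52 and Vip with Uchl1 from 0.18 to 0.44. These are descriptions without a test, over libraries that differ in diet and in the smooth muscle sum. The genes of all tested whose pattern was most like Uchl1 included Nefl (r = 0.95), and those most like Elavl4 included Chrna3, a nicotinic subunit of enteric neurons (r = 0.91). For Nos1 they were Ocrl (r = 0.98), Parva (r = 0.96) and Zan (r = 0.96), and for Vip they were Spire2 (r = 0.87), Cmpk1 (r = 0.85) and Arl1 (r = 0.83). The rest for Uchl1 were Maged1 (r = 0.93) and Parva (r = 0.93), and for Elavl4 Kcnip4 (r = 0.92) and Pdzrn3 (r = 0.91). Those of Ret were Slc25a4 (r = 0.89), Zfp775 (r = 0.88) and Neu1 (r = 0.87), and those of Chat were Dmwd (r = 0.89), Chd8 (r = 0.87) and Nrp1 (r = 0.87). S100b was closest to Pcdh17 (r = 0.86), Bbs4 (r = 0.85) and Fnip2 (r = 0.85), and Ngfr to Champ1 (r = 0.90), Fgf2 (r = 0.88) and Ubap2 (r = 0.88).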

How the data were processed

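Paired-end poly(A) RNA-seq was made from 16 mouse ileum samples, 1 library per mouse. The authors aligned reads with TopHat2 to mm10 and counted them per Ensembl gene with HTSeq, and the deposited values are raw counts with no normalization. Per the labels, FastQC 0.10.1 was among the tools. Whether strand was used in counting is not given in the sources used here. Symbols, positions and exon lengths came from GENCODE M21 (GRCm38). Of 21965 genes, 13811 passed edgeR's expression filter. All 16 libraries entered 1 fit with a mean per group (edgeR 4.0.16 in R 4.3.3, TMM scaling, robust quasi-likelihood test, Benjamini-Hochberg adjustment, called at 0.05). CPM were taken over TMM-adjusted library sizes, and standard errors were the log2 fold change over the root of F. Permutation tests were exact and two-sided, on log2(CPM + 0.5), and ratio tests on the log2 ratio with no pseudocount, a scale chosen after seeing the data; Chat, at 0 in 1 mouse, had no ratio test. Of 40 permutation tests on members, 8 had p under 0.05, without adjustment. The floor of 3 reads was worth 0.246 to 0.421 CPM. The code was tested on simulated data. For genes with a mean under 6 CPM, 0 of 18 simulated 2-fold changes were recovered in WT mice and 2 of 26 in fat-1 mice. Of 4-fold changes in such genes, 14 of 18 and 14 of 22 were recovered. Alternatives were DESeq2 1.42.0, limma voom (limma 3.58.1), other scalings, filters and sample sets. The members, gene lists and tests were chosen with earlier results of these data known. In the wider lists, the named genes were the 2 with the highest mean CPM and the 3 with the largest called change in fat-1 mice, and Entpd2 was named after its value was seen; 1 gene that the rule names is not reported here. No 2 of 25 replicate pairs agreed within sampling noise. P-values set a difference against the spread between mice, which in edgeR's shared fit comes from all 16 libraries. On leaving out fat-1 EtOH 3 and 4, Nos1 in WT mice went from an edgeR adjusted p of 0.276 to 0.0344.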

Additional observations from a re-analysis of the deposited data

Results flagged for a closer look

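In fat-1 PF 1, 2 and 4 Nos1 was between 0.982 and 1.06 CPM, on 7 to 10 reads. Nos1 in fat-1 PF 3 was at 0.547 CPM, on 4 reads near the floor of 3, a gap of 0.848 of the range of the group. It was the 1 value that stood apart among 24 groups of 4 or 5 mice examined, where about 1 in 20 is expected by chance.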

How the results depend on the processing

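The number of members called in fat-1 EtOH against fat-1 PF mice, 4 in the report, was 1 by limma voom, 1 under the stricter filter (10 reads in every mouse, which left 3 members and 35 genes of the wider list to test), 2 with only these groups fitted, 1 without the 3 libraries high in large intestine genes, 1 without fat-1 PF 2 and 4, and 2 without fat-1 EtOH 3 and 4 only, which was chosen after seeing the data. For the wider list, 45 in the report, these settings gave 23, 26, 26, 27, 17 and 27, where 26.8%, 38.7%, 23.2%, 29.7%, 13.9% and 30.8% of all genes were called, against 37.4% in the report. In WT mice, where 0 members were called, limma voom, the 2 groups alone and leaving out fat-1 EtOH 3 and 4 gave 1 each, and for the wider list DESeq2 gave 1 and these 3 gave 20, 14 and 2, beside 1.86%, 20.7%, 8.32% and 2.01% of all genes. Averaged over genotypes, 3 members were called, against 5 with upper-quartile scaling and 1 each with the stricter filter, without the 3 libraries, without fat-1 PF 2 and 4, and without fat-1 EtOH 3 and 4, and the wider list had 43, against 26 with the stricter filter. Of all genes 35.9% were called in the averaged comparison, and 38.7%, 37.4%, 32.9%, 23.9% and 34.9% under these settings. By limma voom 3 members were again called in it, beside 42.5% of all genes, but not the same 3. Chat was called (1.31, limma voom adjusted p = 0.0168) and Elavl4 was not (0.76, limma voom adjusted p = 0.0546). Of 32 permutation tests on single members, 3 had p under 0.05, against 8 with CPM over raw library totals. Leaving out 1 mouse at a time gave 2 to 4 members for the fat-1 comparison (2 without fat-1 PF 1, fat-1 EtOH 3 or fat-1 EtOH 4, and 3 without fat-1 PF 2, 3 or 4), 1 to 4 averaged over genotypes (1 without WT PF 2 or 3, any WT EtOH mouse or fat-1 EtOH 3, and 2 without WT PF 1, fat-1 PF 1, 3 or 4, or fat-1 EtOH 4) and 0 in WT mice, and 35 to 48, 37 to 47 and 0 to 1 genes of the wider list, while 28.5% to 39.4%, 26.9% to 38.1% and 0% to 0.479% of all genes were called. Both genotype comparisons and the interaction stayed at 0 calls under every setting run. Fits of only the groups compared give no averaged or interaction value.

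Of 479 fold changes of single members under other settings, 32 changed sign, none of them called in the report. Ngfr in WT mice was at 0.028 with upper-quartile scaling, 0.0415 by limma voom and 0.0413 with a replicate block. Vip in fat-1 mice was at 0.079 with upper-quartile scaling, 0.11 with the block and 0.078 without fat-1 PF 2 and 4, where Ret was at -0.0046. Between PF groups S100b was at -0.0010 with upper-quartile scaling, and without fat-1 PF 2 and 4 Ret was at 0.11, Vip at -0.10 and S100b at -0.28. Between EtOH groups limma voom gave Elavl4 -0.19, Uchl1 -0.22, Ret 0.068 and Nos1 -0.26. Without the 3 libraries these were -0.52, -0.44, 0.10 and -0.73, with Vip at -0.0025, and without fat-1 EtOH 3 and 4 Elavl4 was at -0.54, Uchl1 at -0.38, Vip at -0.057 and Nos1 at -0.65. For the interaction Nos1 was at -0.025 by limma voom, Uchl1, Vip and Nos1 at -0.092, -0.035 and -0.35 without the 3 libraries and -0.031, -0.090 and -0.28 without fat-1 EtOH 3 and 4, and Ret at -0.17 without fat-1 PF 2 and 4. Leaving out 1 mouse at a time, signs also changed for Ngfr in WT mice (-0.28 to 0.18), Vip in fat-1 mice (-0.38 to 0.14), Vip (-0.13 to 0.21), Chat (-0.60 to 0.37) and S100b (-0.16 to 0.39) between PF groups, Elavl4 (-0.10 to 0.48) and Ret (-0.15 to 0.043) between EtOH groups, and Ret (-0.0063 to 0.33) and Chat (-0.13 to 0.83) for the interaction. The causes were not tested.

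Replicate numbers did not pair the mice: deviations of mice with the same number had a mean r of -0.02 over 21 pairs, and 1 of 16 libraries was closest to one of its own number. With a replicate block, 4 members and 45 genes of the wider list were called in fat-1 mice, 0 and 0 for WT, and 4 and 46 averaged over genotypes, beside 34.4%, 0.13% and 35% of all genes. At 0 to 21 reads, changes in Chat below those its standard errors allow were not detectable.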
